A study of Homo sapiens with 6 samples.

Results

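The genes described here encode the matrix metalloproteinases (MMPs), the ADAM and ADAMTS families and their tissue inhibitors (TIMPs) in ARPE-19, a human cell line derived from retinal pigment epithelium, the cell layer beneath the photoreceptors. Members were taken by gene symbol: symbols of the MMP, ADAM, ADAMTS, TIMP and SERPIN series, without antisense RNAs. The rule itself used no measured value, but it was chosen with earlier results of these data known. The platform annotation used here named probes for 53 such genes, among 14884 named genes in all. They were 20 MMP genes, 23 ADAM genes, 6 genes of the ADAMTS series and all 4 TIMPs. Of the ADAMTS series, 5 were ADAMTS-like genes and 1 a pseudogene. The SERPIN serine protease inhibitors, the catalytic ADAMTS enzymes, and MMP2, MMP3, MMP7 and MMP9 had no named probe and were not analysed here.

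Cells of both groups had been kept confluent for 4 weeks in medium with 1% serum, and then spent 2 days without serum. One group, called untreated in the labels, received vehicle for 2 days. The other received 250 µM FAC for 2 days, FAC being the usual abbreviation of ferric ammonium citrate, an iron salt. Each group held 3 biological replicates with 1 array each. All the cells were of 1 line, so the replicates are cultures and not donors. The median log2 intensity of the 6 arrays lay between 6.03 and 6.09, and Pearson's r between any pair of arrays was 0.991 to 0.995 over all probes. Of 18 marker genes of retinal pigment epithelium 14 were measured and none passed the test. OTX2 and KRT18 lay at the 97.7th and 97.5th percentile of genes by level and TYRP1 at the 92.2nd, whereas the visual cycle genes RPE65 and LRAT and the channel gene BEST1 lay in the dimmest 33.3%. No detection calls came with the values, so whether these 3 were expressed is unknown. Untreated replicate 2 stood apart in the pigment genes TYRP1 and TYR. TYRP1 measured 9.48 there against 10.45 and 10.28 on the other untreated arrays, with FAC arrays between 9.82 and 9.93. TYR measured 6.88 there against 7.97 and 7.86, with FAC arrays between 7.43 and 7.67. PMEL, another pigment gene, was not lower there (7.17 against 7.13 and 6.90). The part of this array in the results was not tested beyond leaving it out.

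MMPs are zinc-dependent enzymes that cut collagens and other matrix proteins, and the TIMPs block their active site. ADAMs are anchored in the membrane and release the outer parts of other membrane proteins, although several have lost the active site and act as adhesion proteins. ADAMTS enzymes are secreted and cut proteoglycans and procollagens, and ADAMTS-like proteins share their matrix-binding repeats without the protease domain. In the eye, retinal pigment epithelium keeps up Bruch's membrane, the sheet of matrix it rests on, and TIMP3 is one of the proteins deposited there.

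With FAC, ADAMTSL3, MMP16 and ADAM23 fell at a limma adjusted p under 0.05, the threshold used throughout. No MMP, ADAM, ADAMTS-like or TIMP gene rose past that threshold. ADAMTSL3 fell to 0.675 of its untreated intensity, MMP16 to 0.752 and ADAM23 to 0.799. Their promoters are shown first, with that of MMP24, the gene with the largest change upward, for contrast. The sequences are from RefSeq (build GRCh38.p14) and run from 250 bases before to 50 bases after the start of the gene, all on the plus strand. RefSeq's promoter table held 31 of the 53 genes, and MMP16 is named only. Capitals mark GC boxes (GGGCGG or its reverse complement), a binding motif of SP-family transcription factors. The windows are chr15:83653873-83654172 for ADAMTSL3, chr2:206443282-206443581 for ADAM23 and chr20:35226440-35226739 for MMP24.
ADAMTSL3: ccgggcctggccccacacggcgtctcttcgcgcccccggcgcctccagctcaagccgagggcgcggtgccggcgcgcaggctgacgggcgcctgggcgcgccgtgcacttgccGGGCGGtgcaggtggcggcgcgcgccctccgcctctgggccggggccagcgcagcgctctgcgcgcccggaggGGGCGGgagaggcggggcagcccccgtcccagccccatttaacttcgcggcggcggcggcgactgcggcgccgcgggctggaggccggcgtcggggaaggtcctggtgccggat
ADAM23: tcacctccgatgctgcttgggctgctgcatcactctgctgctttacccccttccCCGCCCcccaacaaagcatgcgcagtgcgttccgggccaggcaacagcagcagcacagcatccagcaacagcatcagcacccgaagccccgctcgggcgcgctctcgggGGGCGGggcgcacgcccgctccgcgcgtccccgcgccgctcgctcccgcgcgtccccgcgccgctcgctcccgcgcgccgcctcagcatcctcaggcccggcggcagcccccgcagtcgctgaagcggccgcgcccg
MMP24: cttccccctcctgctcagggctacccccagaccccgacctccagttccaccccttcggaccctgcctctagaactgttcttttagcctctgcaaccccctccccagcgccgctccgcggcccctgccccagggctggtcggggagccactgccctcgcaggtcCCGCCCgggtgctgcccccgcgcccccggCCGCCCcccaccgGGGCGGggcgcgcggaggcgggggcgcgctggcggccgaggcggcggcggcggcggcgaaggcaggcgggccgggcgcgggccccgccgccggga

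ADAMTSL3 and ADAM23 each had 2 GC boxes in these windows and MMP24 had 3. Of all 35116 promoters, 45.0% had at least 1 such match on either strand, and 19 of the 31 promoters of the present genes did. The AP-1 motif TGANTCA, well known from the promoters of secreted MMPs, occurred in none of the 3 windows. It was found in 2 of the 31, those of MMP10 and MMP20, and in 7.71% of all promoters. ACGTG, the core bound by hypoxia-inducible factors, occurred in none of the 3 windows either, in 10 of the 31 and in 21.4% of all promoters. None of the 3 motifs contains another, and a match is a description of the letters only.

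FAC and vehicle were compared to find genes of the protease system that differ after FAC. Levels below are log2 intensities, given as mean ± SD (n = 3 per group), and a change is a log2 fold change of FAC over untreated ± SE. A gene was called changed when limma's adjusted p over all 14884 genes was under 0.05. By this rule 3 of the 53 genes were called, all lower, against 3.73% of all genes called in either direction, 1.85% lower and 1.88% higher. The 3 are 5.66% of the 53. At an unadjusted p under 0.05, 4 of the 53 lay higher and 7 lower, against 17.2% of all genes in either direction. The median change of the 53 was -0.02 beside 0.00 (-0.0041) over all genes, with 24 above and 29 below 0. Of the 53 genes, 23 lay in the dimmest 33.3% of genes by level, and none of those 23 was called. In bulk RNA, fewer cells that express a gene and less RNA of it per cell cannot be told apart.

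Of 10 fibroblast marker genes 4 were measured. Their mean log2 intensity lay between 7.22 and 7.31 on the untreated arrays and between 7.002 and 7.006 on the FAC arrays, and LUM, the gene of the matrix proteoglycan lumican, fell (-0.56 ± 0.08, adjusted p = 0.0104). DCN, another such marker, gave -0.38 ± 0.09 (adjusted p = 0.0539), and FBLN1 and THY1 gave -0.04 ± 0.06 and -0.03 ± 0.06. The part of these markers in the changes below was not tested. None of 6 measured blood and endothelial markers and none of 4 measured photoreceptor, neuron and glia markers passed.

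**Figure D1:**
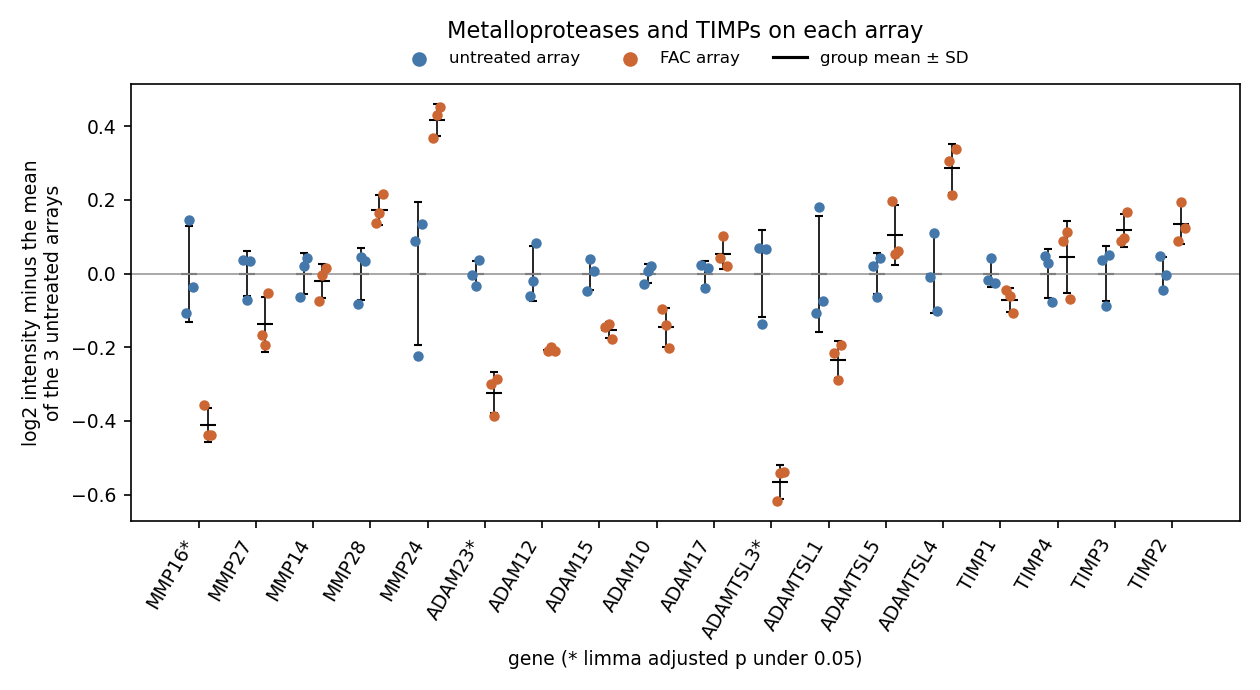
Each point is 1 array, plotted as log2 intensity minus the mean of the 3 untreated arrays of that gene (vertical axis), for 18 genes ordered by family (horizontal axis). Blue points are untreated and orange points FAC arrays, and black lines give group means ± SD. ADAMTSL3, MMP16 and ADAM23 (asterisks) have all FAC points below all untreated points, and MMP24 has all of them above.

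ADAMTSL3, also called punctin-2, is a secreted matrix glycoprotein without protease activity. It measured 9.97, 9.77 and 9.97 on the untreated arrays and 9.28, 9.36 and 9.36 on the FAC arrays. The groups were far apart relative to their spread, and every FAC array was lower than every untreated one. The means were 9.90 ± 0.12 and 9.34 ± 0.05, a change of -0.57 ± 0.07 (limma adjusted p = 0.00775), or 1.48-fold lower. ADAMTSL3 passed under each of 13 alternative processings, including each array left out in turn, with changes between -0.63 and -0.53 when an array was left out.

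The other ADAMTS-like genes did not pass the test and lay on both sides of 0. ADAMTSL4, whose product binds fibrillin and is needed to hold the lens of the eye in place, measured 7.09, 7.21 and 6.998 untreated and 7.40, 7.31 and 7.44 with FAC. Its groups did not overlap, and the change was 0.29 ± 0.07 (adjusted p = 0.0752). It passed without the dimmest genes (adjusted p = 0.0356) and with limma's intensity-trended, robust variance prior (0.0485), and adjusted p ranged up to 0.222 over its 13 alternatives. ADAMTSL1, or punctin, a close relative of ADAMTSL3, measured 6.64, 6.93 and 6.68 untreated and 6.53, 6.46 and 6.56 with FAC (-0.23 ± 0.08, adjusted p = 0.199). The 3 untreated values of ADAMTSL1 all lay above the FAC values, with untreated replicate 2 highest, and without that array the change was -0.14. ADAMTSL5, another fibrillin-binding protein, measured 8.11 ± 0.06 and 8.22 ± 0.08 (0.10 ± 0.06, adjusted p = 0.461, and 0.06 without FAC replicate 1). ADAMTSL2 gave 0.07 ± 0.08. The pseudogene ADAMTS7P1 gave -0.07 ± 0.09 on the probe used and 0.27 ± 0.09 on its other probe, so its direction is unsettled, and its resemblance to its parent gene makes both values uncertain.

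Among the MMPs, the membrane-type enzymes held the gene that fell and the one with the largest change upward. MMP16, or MT3-MMP, spans the membrane and can activate the proenzyme of MMP2. It measured 8.89, 9.14 and 8.96 untreated and 8.64, 8.56 and 8.56 with FAC. All 3 FAC arrays were lower, and the untreated arrays spread more, with replicate 2 highest, without which the change was -0.34. The means were 8.996 ± 0.13 and 8.585 ± 0.05, a change of -0.41 ± 0.07 (adjusted p = 0.0271), or 1.33-fold lower. MMP16 no longer passed without untreated replicate 3 (adjusted p = 0.0867) and without FAC replicate 1, 2 or 3 (0.0887, 0.0864 and 0.0880), where the change lay between -0.44 and -0.40.

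MMP24, or MT5-MMP, is a relative of MMP16 known from the nervous system, where it cuts N-cadherin. It measured 8.74, 8.42 and 8.78 untreated and 9.02, 9.08 and 9.10 with FAC. The FAC arrays were close together and all higher, while untreated replicate 2 lay below the other untreated arrays, and without it the change was 0.31. The change was 0.42 ± 0.10 (1.34-fold, adjusted p = 0.0574), which did not pass. It passed without the dimmest genes (adjusted p = 0.0285), after quantile normalization (0.0453), with the intensity-trended prior (0.00996) and when both probes of the gene were averaged (0.0493), and adjusted p ranged up to 0.159 over the 13 alternatives. The second MMP24 probe, which was dimmer (mean level 7.49 against 8.86), gave 0.21 ± 0.09. RefSeq places an antisense and a readthrough transcript over MMP24, neither of which had a named probe.

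The other membrane-type enzymes did not pass. MMP14, or MT1-MMP, a collagenase of the cell surface and the main activator of the MMP2 proenzyme, measured 10.97, 11.05 and 11.07 untreated and 10.96, 11.03 and 11.05 with FAC. These groups overlapped almost fully (-0.02 ± 0.06, adjusted p = 0.893), and the sign turned without untreated replicate 3 or FAC replicate 1. MMP15 gave 0.06 ± 0.08 and MMP17 0.05 ± 0.10. MMP25, which is anchored by a lipid, gave -0.18 ± 0.10 on the probe used and 0.00 and 0.03 on its other probes. On the same arrays the change of MMP16 minus that of MMP14 was -0.39 ± 0.08 on the log2 scale, and minus that of MMP24 it was -0.83 ± 0.19, both with an exact 2-sided permutation p of 0.1, the smallest that 3 against 3 arrays allow. These pairs and the 3 others compared below were chosen after the values were seen, and the p adjusted over the 5 pairs was 0.1 for each.

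Of 12 secreted MMPs none passed the test, and 10 of these lay in the dimmest 33.3% of genes. MMP28, or epilysin, an enzyme of epithelia, measured 6.67, 6.80 and 6.79 untreated and 6.89, 6.92 and 6.97 with FAC. Its FAC arrays were all higher, by little (0.17 ± 0.06, adjusted p = 0.180), and the overlapping gene C17orf50 gave 0.14 ± 0.08. MMP27 measured 4.43 ± 0.06 and 4.29 ± 0.07 (-0.14 ± 0.06, adjusted p = 0.313), with overlapping groups at a low level. The interstitial collagenase MMP1, singled out after its values were seen, measured 5.51, 6.19 and 5.71 untreated and 5.37, 5.31 and 5.66 with FAC. The groups overlapped, and much of the difference lay in untreated replicate 2 (-0.36 ± 0.17, adjusted p = 0.345). Without that replicate the change was -0.16. The other 9 secreted MMPs had adjusted p above that of MMP1. MMP23A and MMP23B, near-identical neighbours that an array may not separate, both gave -0.06.

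**Figure D2:**
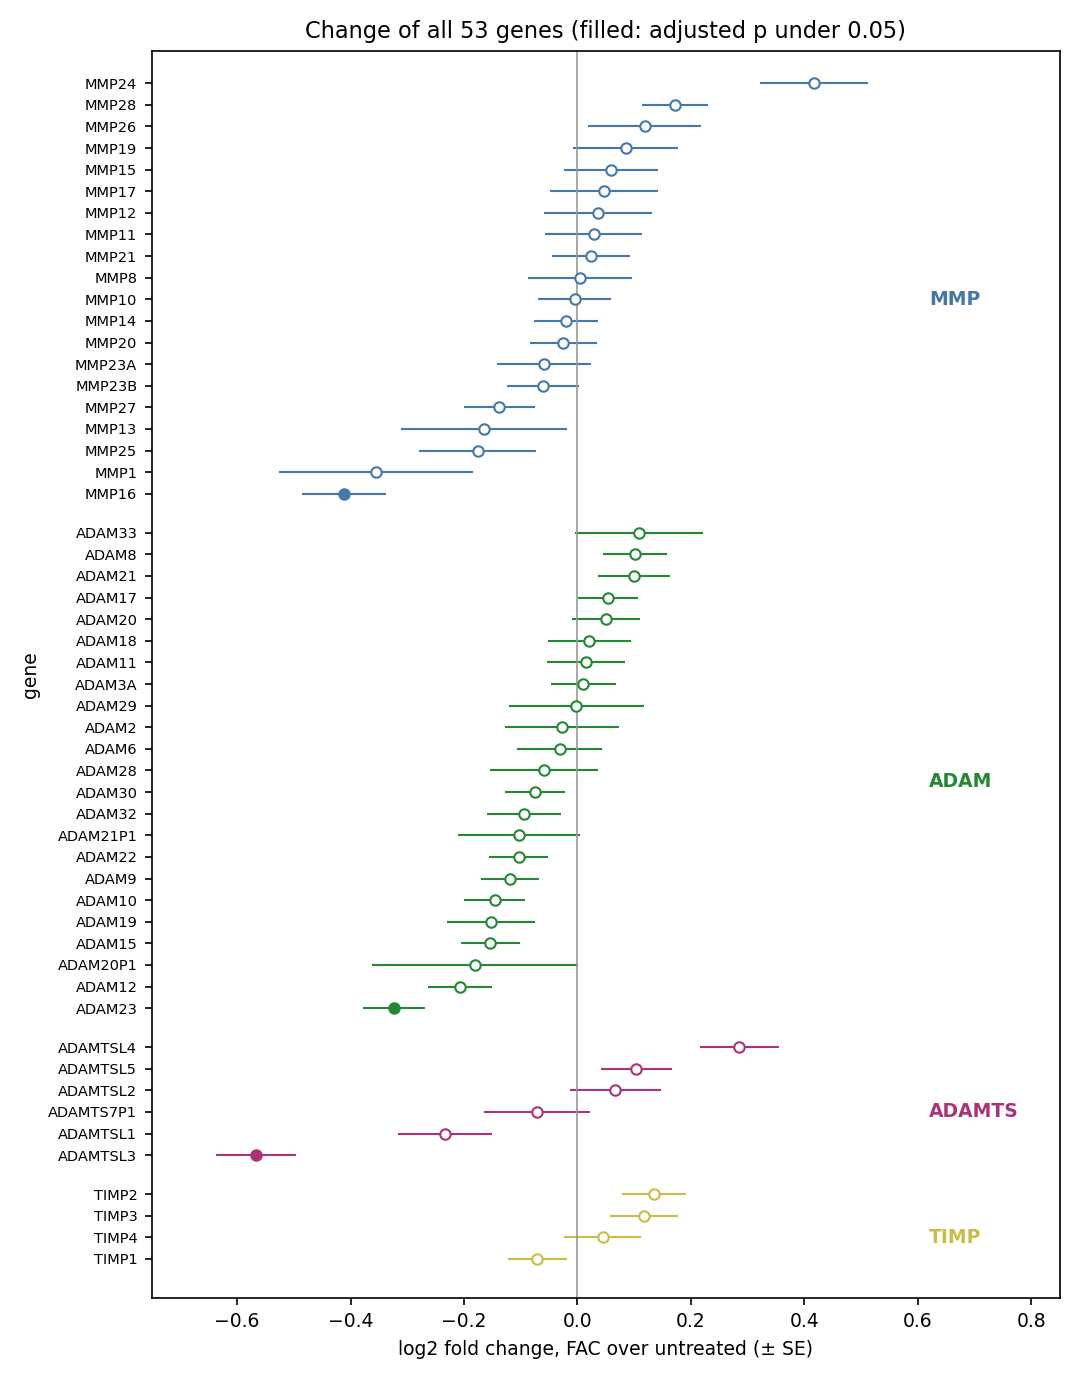
Log2 fold change of FAC over untreated with its SE (horizontal axis) for each of the 53 genes (vertical axis), grouped and coloured by family. Filled points passed the test, and they are MMP16, ADAM23 and ADAMTSL3, all to the left of 0. Of the ADAM genes 15 of 23 lie left of 0, and of all 14884 genes 7658 were at or below 0.

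In the ADAM family 1 of 23 genes fell (4.35%, against 1.85% of all genes) and none rose (1.88% of all genes). No member had all FAC arrays above all untreated ones. In 7 of the 23, or 30.4%, all FAC arrays lay below all untreated ones, against 13.0% of all genes below and 10.4% above. For all 53 genes these counts were 11 below and 6 above, together 32.1%, against 23.4% of all genes. The median change of the 23 was -0.06.

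ADAM23 is an ADAM without an active site, known from the nervous system, where it binds secreted LGI proteins and integrins. It measured 7.54, 7.51 and 7.58 untreated and 7.25, 7.16 and 7.26 with FAC. The spread within either group was small against the gap between them. The means were 7.54 ± 0.04 and 7.22 ± 0.06, a change of -0.32 ± 0.05 (adjusted p = 0.0224), or 1.25-fold lower. ADAM23 no longer passed without untreated replicate 1 or 3 (adjusted p = 0.0692 and 0.0899) and without FAC replicate 1, 2 or 3 (0.0855, 0.0756 and 0.0563), with changes between -0.34 and -0.29. ADAM22, the nearest relative of ADAM23 in function and likewise without an active site, was looked at for that reason after its values were seen. It measured 6.02 ± 0.04 and 5.92 ± 0.03 without overlap (-0.10 ± 0.05, adjusted p = 0.361).

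Of the 12 ADAMs with an active site, none passed and 5 had all FAC arrays below the untreated ones (13.0% of all genes did). ADAM12, which can release the growth factor HB-EGF, measured 10.76, 10.80 and 10.90 untreated and 10.61, 10.62 and 10.61 with FAC. The FAC arrays were nearly equal and all lower (-0.21 ± 0.06, adjusted p = 0.102). ADAM12 passed without the dimmest genes (adjusted p = 0.0484) and with the intensity-trended prior (0.0115), and adjusted p ranged up to 0.266. ADAM15 measured 9.05, 9.13 and 9.10 untreated and 8.95, 8.96 and 8.91 with FAC, again without overlap (-0.15 ± 0.05, adjusted p = 0.179).

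ADAM10 and ADAM17 are the 2 principal sheddases, of Notch receptors, the amyloid precursor and cadherins for the first and of TNF and EGF-receptor ligands for the second. ADAM10 measured 11.76, 11.80 and 11.81 untreated and 11.69, 11.65 and 11.59 with FAC. All FAC values were lower, and the change did not pass (-0.15 ± 0.05, adjusted p = 0.212) except with the intensity-trended prior (0.0272). ADAM17 measured 9.78, 9.71 and 9.77 untreated and 9.79, 9.85 and 9.77 with FAC, with overlap (0.05 ± 0.05, adjusted p = 0.667). On the same arrays the change of ADAM10 minus that of ADAM17 was -0.20 ± 0.04 on the log2 scale (exact permutation p = 0.1, the smallest possible). The remaining 8 ADAMs with an active site had changes between that of ADAM19 (-0.15 ± 0.08) and that of ADAM33 (0.11 ± 0.11). Of these, ADAM9 and ADAM30 had no overlap between groups (-0.12 ± 0.05 and -0.07 ± 0.05). TM2D2, which overlaps ADAM9 in RefSeq, gave -0.12 ± 0.07. The other 5 ADAMs without an active site, most of them genes of the testis, did not pass, nor did the 4 ADAM pseudogenes, among which ADAM20P1 and ADAM21P1 resemble ADAM20 and ADAM21 too closely for separate values to be certain.

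The TIMPs showed small differences, none past the test. TIMP2, which both inhibits MMPs and takes part with MMP14 in activating the MMP2 proenzyme, measured 12.14, 12.05 and 12.08 untreated and 12.18, 12.28 and 12.21 with FAC. Its FAC arrays were all higher (0.13 ± 0.06, adjusted p = 0.272), and of its 13 alternatives it passed only with the intensity-trended prior (0.0477). TIMP3, the matrix-bound inhibitor that also blocks ADAM17 and is mutated in Sorsby fundus dystrophy, measured 12.47, 12.35 and 12.49 untreated and 12.52, 12.53 and 12.60 with FAC. Its groups did not overlap either (0.12 ± 0.06, adjusted p = 0.375). Its second probe, far dimmer (mean level 6.93 against 12.50), gave 0.15 ± 0.07. Without untreated replicate 2 the change of TIMP3 was 0.07.

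TIMP1 measured 12.14, 12.20 and 12.13 untreated and 12.11, 12.10 and 12.05 with FAC. Here the FAC arrays were the lower ones (-0.07 ± 0.05, adjusted p = 0.552). TIMP4 measured 5.55 ± 0.07 and 5.59 ± 0.10 (0.04 ± 0.07, adjusted p = 0.800). The change of TIMP1 minus that of TIMP2 was -0.21 ± 0.06, and minus that of TIMP3 it was -0.19 ± 0.08, on the log2 scale (exact permutation p = 0.1 for each, the smallest possible). TIMP1, TIMP3 and TIMP4 overlap the synapsin genes SYN1, SYN3 and SYN2 in RefSeq, which gave 0.16 ± 0.08, 0.08 ± 0.11 and 0.02 ± 0.14. CEP295NL, which overlaps TIMP2, gave 0.18 ± 0.10, and none of these 4 overlapping genes passed the test.

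**Figure D3:**
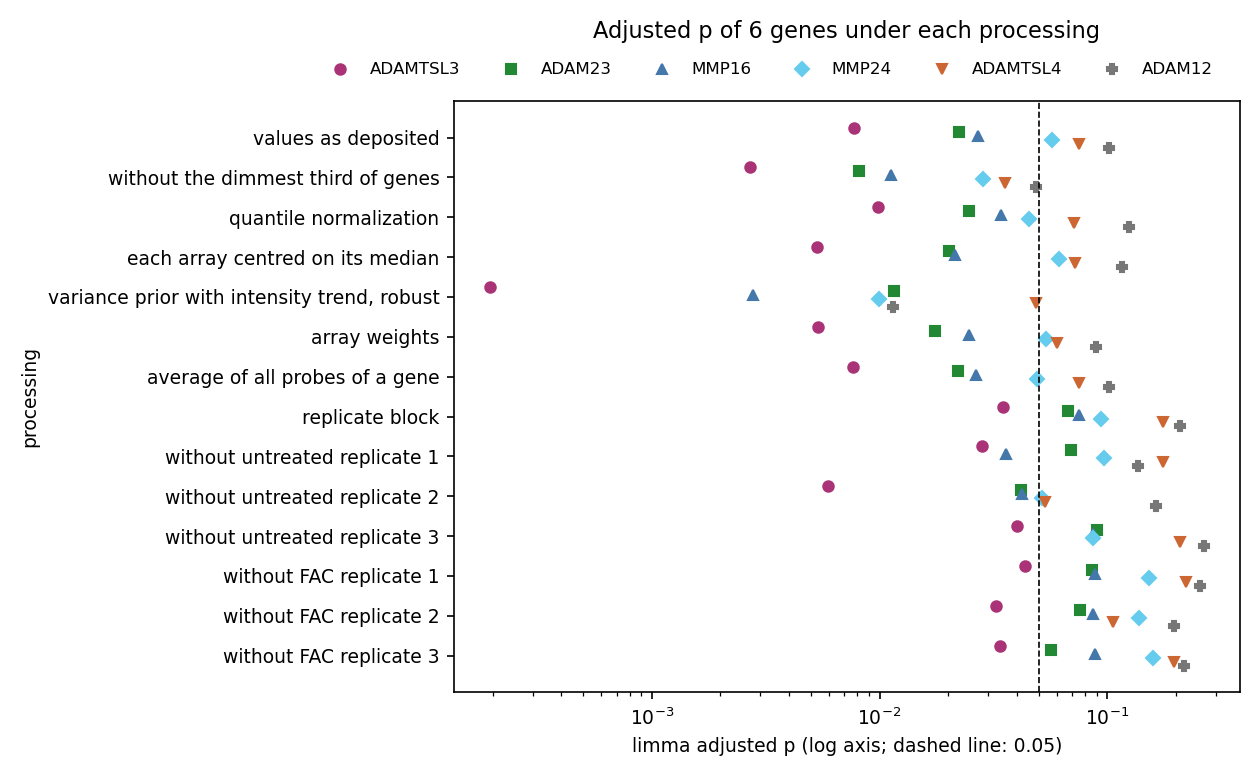
Limma's adjusted p (horizontal log axis, dashed line at 0.05) of 6 genes under the values as deposited and 13 alternative processings (vertical axis). ADAMTSL3 lies left of the line in every row, MMP16 and ADAM23 cross it under the replicate block and when some single arrays are left out, and MMP24 lies left of it in 4 of the 13 alternatives.

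Genes related to these proteases were described from 8 lists that hold 115 genes, of which 83 had a named probe. The lists cover plasminogen activation, proprotein convertases, ADAM partners, cell surface cofactors, inhibitors and substrates, and other metalloproteases and serine proteases. Of the 83, 4 rose and 4 fell, or 4.82% each, against 1.88% and 1.85% of all genes. The lists were chosen with earlier results of these data known, so these shares are a description and no test. The median change was 0.06 (all genes, -0.0041). No serine protease of the list of 10 measured passed. HTRA1, a secreted serine protease of extracellular matrix, came closest (-0.20 ± 0.05, adjusted p = 0.0988). It passed without the dimmest genes and with the intensity-trended prior (adjusted p = 0.0456 and 0.00976, ranging up to 0.283). None of 6 cell surface cofactors passed, with the hyaluronan receptor CD44 closest (-0.18 ± 0.09, adjusted p = 0.345, and -0.08 without untreated replicate 2). None of 3 genes of plasminogen activation passed, with the plasminogen-binding annexin ANXA2 closest (-0.13 ± 0.06, adjusted p = 0.326).

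Among 7 other metalloproteases, 1 rose and 1 fell (1.88% and 1.85% of all genes). MME, or neprilysin, a membrane enzyme that degrades small peptides including amyloid-beta, measured 9.18, 9.24 and 9.22 untreated and 9.67, 9.68 and 9.74 with FAC. The FAC arrays lay well above the untreated ones (0.48 ± 0.05, 1.40-fold, adjusted p = 0.00474), and MME passed under each of the 13 alternatives. TLL1, a procollagen C-proteinase related to BMP1, measured 8.61, 8.37 and 8.72 untreated and 8.01, 8.10 and 8.08 with FAC. It fell by 0.50 on the log2 scale (SE 0.09, adjusted p = 0.0262), whereas BMP1 itself gave -0.09 ± 0.07 (adjusted p = 0.542).

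Enzymes and partners that bring the proteases to activity were measured as well. PCSK5 is a proprotein convertase that cuts precursors at the same kind of site as furin. Its level rose from 7.13 ± 0.08 to 7.50 ± 0.04 (0.37 ± 0.06, adjusted p = 0.0194) as 1 of 5 convertases (1.88% of all genes rose). FURIN, the convertase that activates membrane-type MMPs and ADAMs, gave -0.17 ± 0.06 (adjusted p = 0.179). TSPAN15, a tetraspanin that binds ADAM10 and directs it to certain substrates, measured 6.76, 6.94 and 7.13 untreated and 7.55, 7.36 and 7.49 with FAC. It rose (0.52 ± 0.10, 1.43-fold, adjusted p = 0.0314) as 1 of 9 partners of ADAM10 and ADAM17 (1.88% of all genes rose). RHBDF2, or iRhom2, which carries ADAM17 to the cell surface, gave -0.28 ± 0.08 (adjusted p = 0.0969).

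**Figure D4:**
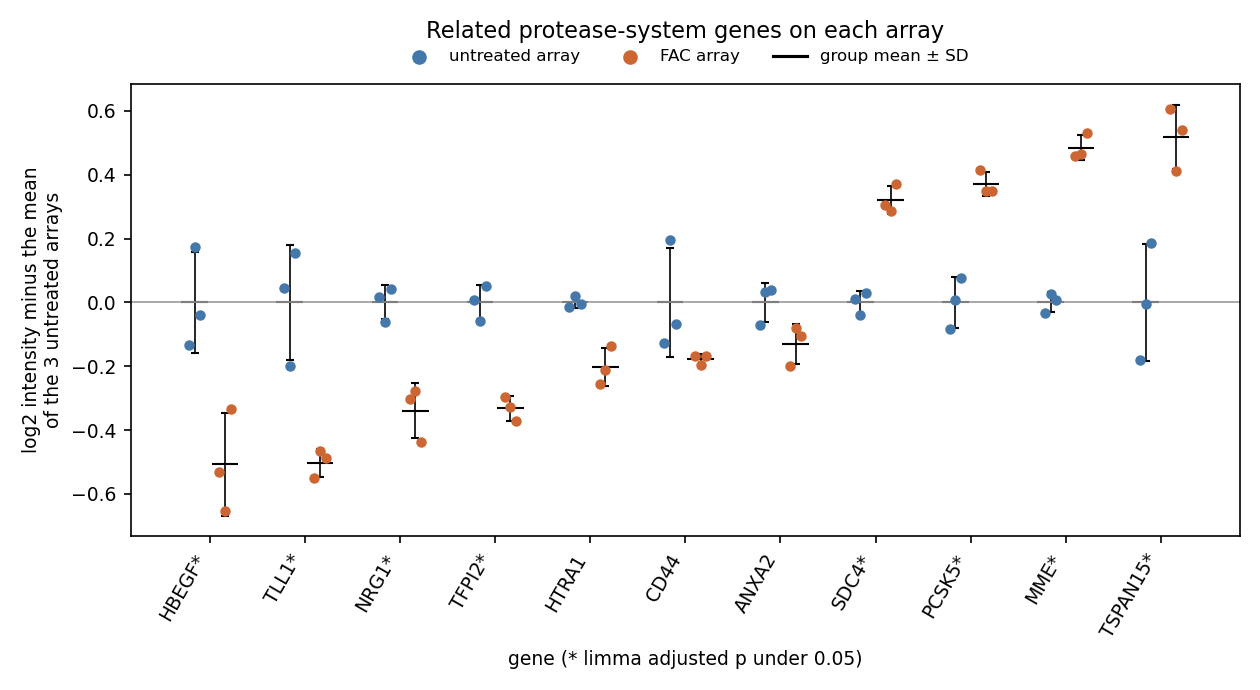
Each point is 1 array, plotted as log2 intensity minus the mean of the 3 untreated arrays (vertical axis), for 11 genes of the wider protease system (horizontal axis); colours, lines and asterisks as in the plot of the proteases and TIMPs. FAC points of TSPAN15, MME, PCSK5 and SDC4 lie above all untreated points, and those of HBEGF, TLL1, NRG1 and TFPI2 below.

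Of 19 other protease inhibitors 1 fell (1.85% of all genes did). TFPI2, a secreted Kunitz-type inhibitor of plasmin and trypsin abundant in extracellular matrix, measured 11.51, 11.44 and 11.55 untreated and 11.21, 11.17 and 11.13 with FAC. The FAC arrays were all lower (-0.33 ± 0.06, adjusted p = 0.0213). RECK, a membrane-anchored inhibitor of MMPs, gave -0.04 ± 0.06 (adjusted p = 0.773). Of 24 genes whose proteins ADAMs or ADAMTS enzymes cut, 1 rose and 2 fell in RNA (1.88% and 1.85% of all genes). The gene of the heparan sulfate proteoglycan SDC4 rose from 10.91 ± 0.04 to 11.23 ± 0.04 (0.32 ± 0.05, adjusted p = 0.0213). NRG1, the neuregulin ligand of ERBB receptors, fell from 8.70 ± 0.05 to 8.36 ± 0.09 (-0.34 ± 0.06, adjusted p = 0.0303). HBEGF, a ligand of the EGF receptor that ADAM12 and ADAM17 release, measured 7.90, 8.21 and 7.995 untreated and 7.50, 7.38 and 7.70 with FAC. It fell by 0.51 on the log2 scale (SE 0.10, adjusted p = 0.0408) and did not pass after quantile normalization (0.0562). The proteoglycan substrate VCAN gave -0.18 ± 0.08 (adjusted p = 0.299), and the Notch receptors NOTCH1 and NOTCH2 gave 0.12 ± 0.06 and 0.07 ± 0.05, neither past the test.

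Of these 8 calls only that of MME held without each array in turn. Of the 4 genes that rose and the 4 that fell, 1 and 0 still passed without untreated replicate 1, 2 and 3 without untreated replicate 2, and 3 and 0 without untreated replicate 3. Without FAC replicate 1 or 2, 1 and 0 still passed, and without FAC replicate 3, 1 and 1 did. Counted over all 83 related genes, which takes in genes not called on all arrays, between 1 and 3 rose and between 0 and 3 fell without single arrays.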

How the data were processed

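Per the labels' protocols, each of the 6 arrays received biotinylated cDNA made from 250 ng of total RNA of 1 culture. The authors deposited 53617 probe values per array on a log2 scale, read as such from their range. The submitters' processing notes name RMA and Partek 6.6, not their order. Genome build, scan dates and detection calls are not given in the sources used here. The platform annotation names 16098 probes for 14884 genes, and the probe with the highest mean was taken for each. FAC and untreated arrays were compared by lmFit and eBayes (limma 3.58.1, R 4.3.3, 2-sided), adjusted over all 14884 genes by Benjamini-Hochberg with a threshold of 0.05. The procedure was also run on simulated data with independent normal errors and no array effects. Such data lack the differences between single arrays seen here, so that run cannot speak to them.

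The alternatives were a filter on dim genes, quantile normalization, median centring, another variance prior, array weights, averaged probes, a replicate block and each array left out. Named were all genes of the families past the threshold, the 3 next by p in each family and a fixed set of TIMPs and enzymes; of the 8 related lists, the genes past it or, with none, the 1 with the smallest p. Genes named beyond these (MMP1, the other MMPs, ADAMs and ADAMTS-like genes given with a bare change, ADAM22, BMP1, FURIN, RHBDF2, RECK, VCAN, NOTCH1, NOTCH2, single markers and overlapping genes) were picked after their values were seen. Members and lists were chosen with earlier results of these data known. Python 3.11.15 and matplotlib 3.10.9 were used for counts, motif matches and plots. P-values measure the spread between these cultures only, and the number of arrays limits the precision.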

Additional observations from a re-analysis of the deposited data

How the results depend on the processing

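The count of 3 protease and inhibitor genes that fell became 5 with limma's intensity-trended, robust variance prior and 1 with the replicate number as a block, and lay between 1 and 3 when single arrays were left out. The count of 0 that rose became 2 without the dimmest genes, 1 after quantile normalization, 3 with that prior and 1 when probes were averaged. Over the whole table, genes called higher numbered 398 (of 9923), 333, 462 and 276 under these settings, against 280 as deposited. With that prior 564 genes of the whole table fell, against 275 as deposited. For related genes, the 4 that fell became 7 with that prior. With the replicate block, 1 related gene rose and 0 fell. Deviations of same-numbered arrays correlated at -0.02, -0.03 and -0.15, and those of different-numbered arrays between -0.10 and 0.13. These values gave no sign of pairing by number, but 3 arrays per group cannot exclude it. Under the block 184 genes of the whole table passed in place of 555, and of the 3 genes ADAMTSL3 passed while ADAM23 and MMP16 did not (adjusted p = 0.0672 and 0.0751). The cause of these shifts was not tested. MMP14 lay between -0.0522 and 0.0056 without single arrays, at 0.0001 without untreated replicate 3. Of 232 values of named members under alternatives, 209 kept direction and side of the threshold. Most named members were not called to begin with, so this share says little about the calls. Of their 13 alternatives, MMP16 passed in 8 and ADAM23 in 7. Without a given array, 147 to 447 genes of the whole table passed. No alternative without the dimmest genes exists for MMP27 and TIMP4, which that filter removed.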
